A study of Mus musculus with 12 samples.

Results

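The genes described here are 10 parts of the machinery that lets a cell leave the G1 phase: the D cyclins Ccnd1, Ccnd2 and Ccnd3, the kinases Cdk4 and Cdk6, and the CDK inhibitors Cdkn1b, Cdkn1c, Cdkn2a, Cdkn2c and Cdkn2d. They were chosen by name, and all 10 were found among the 40481 genes of the deposited table. RNA had been sequenced from sorted mouse hematopoietic stem cells (HSCs) of 2 genotypes, wild type (WT) and iE/R, which carries an inducible ETV6-RUNX1, the fusion found in a common childhood leukaemia. The source was either the fetal liver of E14.5 embryos or the bone marrow of mice 8 weeks old. Every group, WT included, spent 3 days ex vivo in a medium that expands HSCs, with doxycycline at 1 µg/mL, so that no group shows freshly isolated or untreated cells. There were 4 groups of 3 libraries. The title of the series asks how the age of the source shapes the action of the fusion. The promoter that drives the fusion and the number of animals behind a library are not given in the sources used here, and the level of the fusion was not analysed here. Nothing in the labels says that libraries of a group came from separate animals, so p-values measure the spread between these libraries, which may be technical.

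D cyclins bind CDK4 and CDK6, and the active pairs phosphorylate the retinoblastoma protein RB. Phosphorylated RB lets go of E2F factors, which then switch on cyclin E and the genes of DNA replication. The INK4 inhibitors (encoded by Cdkn2a, Cdkn2c and Cdkn2d among the genes here) bind CDK4 and CDK6 and keep the D cyclins off, whereas the CIP/KIP inhibitors (Cdkn1b and Cdkn1c here) bind cyclin-CDK complexes and block CDK2 in particular. In HSCs these genes are known for their part in the balance between quiescence and division: Cdkn1c is a marker of quiescent stem cells, Cdk6 has been tied to exit from quiescence, and Cdkn2a is normally silent in young stem cells.

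Library totals ran from 32.3 to 64.5 M reads, and a count of 3 reads, used as the floor of detection, was worth 0.0465 to 0.0928 CPM (read counts scaled to a fixed library total). All 12 HSC markers of a fixed list had a group mean of at least 1 CPM in every group. Their summed level was 1972 to 2432 CPM in WT fetal liver, 4581 to 4852 in ETV6-RUNX1 fetal liver, 2144 to 3243 in WT marrow and 3384 to 3806 in ETV6-RUNX1 marrow. Megakaryocyte markers were also abundant, with all 9 at 1 CPM or more in fetal liver. Their sum was 3081 to 4559 CPM in WT fetal liver, 7237 to 7954 in ETV6-RUNX1 fetal liver, 1363 to 1818 in WT marrow and 466 to 2099 in ETV6-RUNX1 marrow. Erythroid markers summed to 886 to 1158, 1730 to 2450, 304 to 583 and 458 to 654 CPM in the same order, and granulocyte and monocyte markers to 255 to 353, 87.6 to 100.1, 205 to 378 and 193 to 215 CPM. Endothelial and stromal markers (Dcn and Cxcl12 at or under the floor in both WT groups) summed to 210 to 266 CPM in ETV6-RUNX1 fetal liver and to at most 106 CPM in the other groups. Most of the sum in ETV6-RUNX1 fetal liver was Pecam1 (122 to 155 CPM) and Myl9 (60.9 to 87.3 CPM). In WT fetal liver these were at 59.3 to 82.1 and at most 0.744 CPM. Mean Cdh5 was higher with the fusion in fetal liver (15.5 against 6.36 CPM) and mean Pdgfrb lower (0.229 against 5.38 CPM). Dcn and Cxcl12 were at most at 1.29 and 2.17 CPM there. The 8 hepatocyte markers summed to 16.6 to 39.9 CPM over all libraries, and most of that was Afp (13.02 to 36.5 CPM). Fgb and Serpina1a had no reads, and Ttr was at or under the floor in every library. Alb reached 0.360 CPM in a library of ETV6-RUNX1 fetal liver and was at or under the floor in the other 3 groups. Apoa1, Apoa2 and Trf were at most at 3.81 CPM. Replicate 1 of WT marrow stood apart through granulocyte genes: S100a8 was at 49.4 CPM there, at 12.0 CPM in replicate 2 and at most at 0.340 CPM in the other libraries, and Elane was at 17.3 CPM there and at most at 0.346 CPM elsewhere. Across genes its log2 levels correlated at 0.977 and 0.979 with the other 2 libraries of its group, which correlated at 0.991 with each other. These are bulk samples, so fewer cells of a type and less RNA per cell cannot be told apart.

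Among the D cyclins, Ccnd3 was higher in ETV6-RUNX1 cells from both sources, Ccnd2 differed little between genotypes, and Ccnd1 was higher in fetal liver than in marrow. Ccnd3 (chr17:47505051-47599691, plus strand of GRCm38) encodes cyclin D3, the D cyclin best known from developing lymphocytes and red cells. Its level was 176, 147 and 162 CPM in the 3 WT fetal liver libraries and 254, 232 and 285 CPM in the 3 ETV6-RUNX1 fetal liver libraries. In marrow it was 69.1, 105 and 115 CPM in WT and 211, 236 and 162 CPM in ETV6-RUNX1. In each source every ETV6-RUNX1 library lay above every WT library. The mean was 1.59-fold higher with the fusion in fetal liver (257 ± 27.03 against 161 ± 14.4 CPM, SD, n = 3 each). On the log2(CPM + 1) scale Ccnd3 rose by 0.67 ± 0.19 (SE) in fetal liver (limma, adjusted p = 0.0105) and by 1.08 ± 0.19 in marrow (adjusted p = 0.00187). The mean in marrow was 2.11-fold higher, 203 ± 37.8 against 96.3 ± 24.2 CPM. The difference between these effects did not pass the test (-0.42 ± 0.26, adjusted p = 0.333). Without replicate 1 of WT marrow the marrow change was 0.86 (limma, adjusted p = 0.00408). The share of reads in processed pseudogenes differed between groups (1.77 to 2.53% in WT fetal liver, 1.33 to 2.06% in ETV6-RUNX1 fetal liver, 1.72 to 2.39% in WT marrow, 2.29 to 2.74% in ETV6-RUNX1 marrow), and with that share as a covariate the fetal liver call was lost (adjusted p = 0.0789) while the marrow call remained. The pseudogene Ccnd3-ps, whose reads can be confused with those of Ccnd3, was listed at 1.12 to 7.68 CPM. Exons of Ccnd3 share 361 bases with Bysl on the opposite strand (29.1 to 72.8 CPM), and the use of strand in counting is not given in the sources used here.

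Ccnd2 (chr6:127125162-127152193, minus strand), which encodes cyclin D2, had the highest level per kb of exon of the D cyclins in every library. Its levels were 528, 576 and 518 CPM in WT fetal liver, 614, 503 and 603 CPM in ETV6-RUNX1 fetal liver, 403, 488 and 488 CPM in WT marrow, and 456, 390 and 451 CPM in ETV6-RUNX1 marrow. The genotypes overlapped in both sources. The log2 difference between ETV6-RUNX1 and WT was 0.08 in fetal liver (95% interval -0.19 to 0.35, limma adjusted p = 0.638) and -0.09 in marrow (-0.36 to 0.19, adjusted p = 0.667). Ccnd1 (chr7:144929931-144939925, minus strand), which encodes cyclin D1, was at 15.2, 21.2 and 17.9 CPM in WT fetal liver and 14.9, 18.2 and 16.1 CPM in ETV6-RUNX1 fetal liver. Marrow had 5.79, 7.93 and 9.54 CPM in WT and 9.56, 13.2 and 8.63 CPM in ETV6-RUNX1. Every fetal liver library was above every marrow library, and the genotypes overlapped within each source. The genotype difference of Ccnd1 was -0.12 in fetal liver (95% interval -0.58 to 0.33, limma adjusted p = 0.666) and 0.39 in marrow (-0.06 to 0.84, adjusted p = 0.207). Ccnd1 shares 1100 exon bases with LTO1 on the opposite strand, which was listed at 27.1 to 51.5 CPM.

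Cdk4 showed the largest fall with the fusion of the 9 members tested: ETV6-RUNX1 cells from fetal liver had 2.38-fold less of it than WT cells. Cdk4 (chr10:127063534-127067920, plus strand) encodes the main partner of the D cyclins in proliferating cells. It was at 802, 906 and 923 CPM in WT fetal liver and at 356, 382 and 370.04 CPM in ETV6-RUNX1 fetal liver. Marrow libraries had 848, 746 and 741 CPM in WT and 586, 487 and 655 CPM in ETV6-RUNX1. No ETV6-RUNX1 library reached the lowest WT library of its source, and the 3 ETV6-RUNX1 fetal liver libraries were the lowest of all 12. In fetal liver Cdk4 fell by 1.24 ± 0.13 (SE) on the log2(CPM + 1) scale (limma, adjusted p = 4.45e-06), a call kept in all 23 other settings. The means were 369 ± 12.96 and 877 ± 65.9 CPM (SD, n = 3 each). In marrow Cdk4 fell by 0.44 ± 0.13 (limma, adjusted p = 0.0278), from a mean of 778 ± 60.4 to 576 ± 84.4 CPM. The marrow call was lost in 7 of 23 settings (adjusted p from 0.00407 to 0.123 over all of them), among them without replicate 1 (0.0744) or 2 (0.0509) of WT marrow and without replicate 1 (0.0609) or 2 (0.123) of ETV6-RUNX1 marrow. Cdk4 was the only member whose response differed between the sources by the test of that difference, at -0.80 ± 0.18 (limma, adjusted p = 0.0142). That call held in 21 of 22 settings and was lost with the processed pseudogene share as a covariate (adjusted p = 0.183). Tspan31 shares 641 exon bases with Cdk4 on the opposite strand and was listed at 100.1 to 134.7 CPM. Summed HSC, megakaryocyte and erythroid markers, given above, were highest in ETV6-RUNX1 fetal liver, and granulocyte and monocyte markers lowest. Most of the erythroid sum there was Hbb-bt (mean 1611 CPM). The granulocyte and monocyte fall from WT fetal liver was mainly in Prtn3 (188 to 30.4 CPM) and Mpo (67.4 to 10.1 CPM). Some markers went against their sums: mean Gp9 fell from 387 to 213 CPM and Tfrc from 55.8 to 33.1, while Csf1r rose from 0.824 to 10.02. The part of these marker differences in the Cdk4 result was not tested.

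The 250 bases before the start of Cdk4, Ccnd3 and Cdkn1b are shown because these genes were called between genotypes in fetal liver with the smallest adjusted p-values of the members. They are read from RefSeq on GRCm38.p6, in the direction of transcription. Capitals mark RUNX words (TGTGGT or TGCGGT, on either strand, so that ACCACA is a match), the ETS word CCGGAA on either strand, and the E-box CACGTG bound by MYC and MXD family proteins, which was added to the search after the Cdk4 sequence had been seen.
Cdk4, chr10:127063285-127063534, plus strand: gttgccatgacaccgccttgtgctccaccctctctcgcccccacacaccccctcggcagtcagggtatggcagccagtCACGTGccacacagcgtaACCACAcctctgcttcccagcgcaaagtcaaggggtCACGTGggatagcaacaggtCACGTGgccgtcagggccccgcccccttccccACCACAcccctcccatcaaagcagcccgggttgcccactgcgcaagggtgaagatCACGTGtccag
Ccnd3, downstream start, chr17:47593217-47593466, plus strand: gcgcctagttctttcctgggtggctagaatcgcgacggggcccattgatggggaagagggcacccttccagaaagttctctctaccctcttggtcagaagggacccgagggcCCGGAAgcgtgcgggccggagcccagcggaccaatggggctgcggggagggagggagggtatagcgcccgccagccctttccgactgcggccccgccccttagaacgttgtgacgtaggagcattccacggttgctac
Cdkn1b, chr6:134920151-134920400, plus strand: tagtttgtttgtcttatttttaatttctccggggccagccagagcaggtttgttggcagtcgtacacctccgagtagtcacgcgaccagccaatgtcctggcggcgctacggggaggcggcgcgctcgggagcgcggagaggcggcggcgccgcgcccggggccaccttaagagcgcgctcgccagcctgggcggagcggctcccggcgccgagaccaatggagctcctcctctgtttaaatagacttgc

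The Cdk4 window held 2 RUNX words, starting at -154 and -66 from the start site, and 4 E-boxes, at -172, -118, -98 and -11. Of 32851 promoter windows of this length, 2.01% held at least 2 RUNX words and 0.0213% held at least 4 E-boxes. Windows with any RUNX word made up 18.6%, and those with any E-box 6.02%. The E-box word was chosen after the Cdk4 window had been seen, so its shares are descriptions and no test of enrichment. The downstream start of Ccnd3 held a single ETS word at -138, as 12.03% of windows held any. The window of the upstream start of Ccnd3 (chr17:47504801-47505050), which is not printed, held none of these words, and neither did the Cdkn1b window. In all, 10 windows covered 7 of the 10 genes. The Cdk6 window also held an E-box, at -220. An E2F word (TTTCCCGC, TTTCGCGC, TTTGCCGC or TTTGGCGC, on either strand) stood in 1 of the 10 windows, that of the upstream start of Cdkn2a, and in 1.86% of all windows. A match is a run of letters and not a measured binding site.

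Cdk6 was lower in fetal liver than in marrow and fell further with the fusion there. Cdk6 (chr5:3341485-3531008, plus strand), the second kinase of the D cyclins, was at 409, 278 and 215 CPM in WT fetal liver and at 205, 131 and 186 CPM in ETV6-RUNX1 fetal liver. It was at 461, 688 and 829 CPM in WT marrow and at 720, 494 and 464 CPM in ETV6-RUNX1 marrow. The fetal liver genotypes did not overlap, although the highest ETV6-RUNX1 library was close to the lowest WT library, and the marrow genotypes overlapped widely. In fetal liver Cdk6 fell by 0.76 ± 0.26 on the log2 scale (limma, adjusted p = 0.031), from 300.5 ± 98.9 to 174 ± 38.4 CPM (SD, n = 3 each). This call was kept in 19 of 23 settings and was lost with no filter on low values. It was also lost without replicate 1 of WT fetal liver (-0.51, limma adjusted p = 0.143), without replicate 2 of WT (-0.79, 0.0598) and without replicate 2 of ETV6-RUNX1 fetal liver (-0.57, 0.135). In marrow the difference was -0.22 (95% interval -0.79 to 0.34, limma adjusted p = 0.581), and the difference between sources did not pass the test (adjusted p = 0.38).

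**Figure D1:**
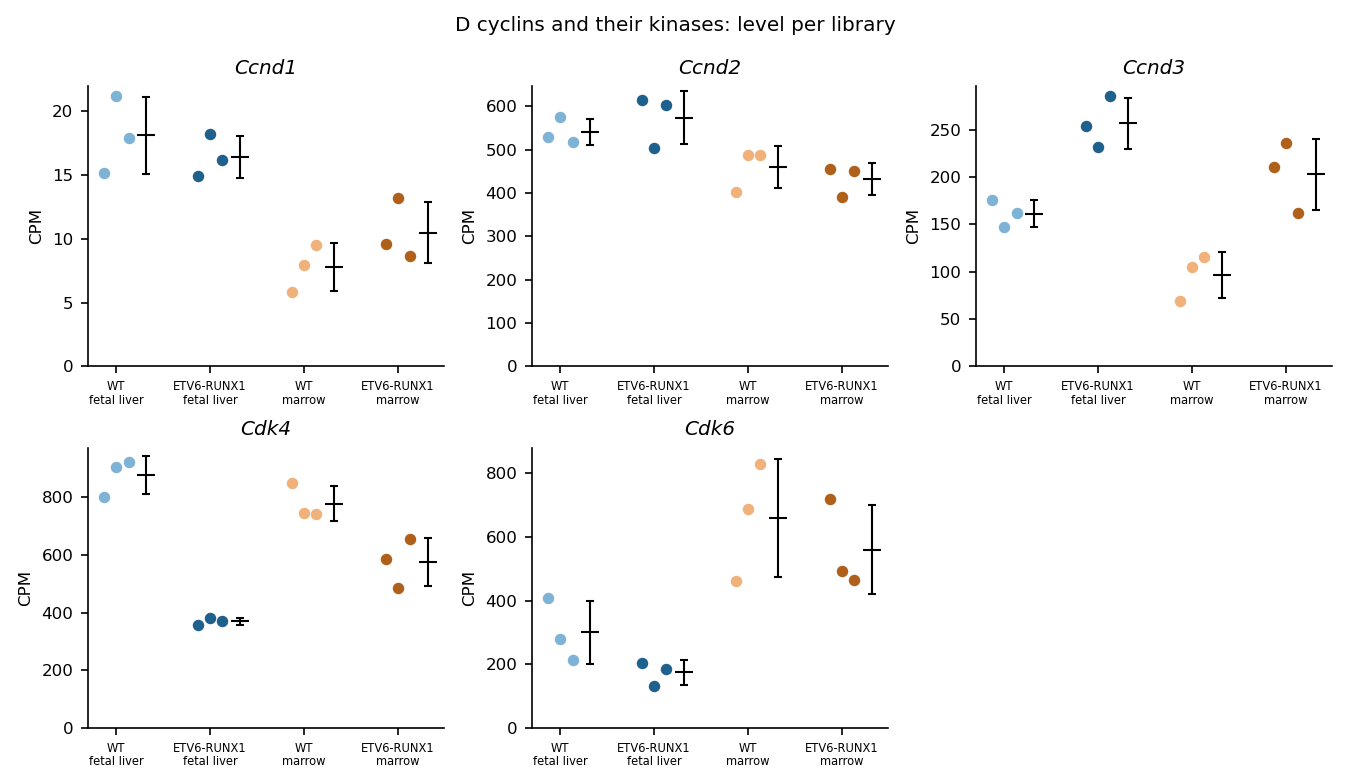
Level of the D cyclins and their kinases in CPM (vertical axis, from 0) in each of the 12 libraries (points), with the mean and SD of each group of 3 (black). The ETV6-RUNX1 libraries lie above WT for Ccnd3 in both sources, and the ETV6-RUNX1 fetal liver libraries lie at 356 to 382 CPM of Cdk4, under all others.

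Of the INK4 inhibitors, Cdkn2d supplied nearly all the RNA, Cdkn2c was close to absent in fetal liver and rose with the fusion in marrow, and Cdkn2a was at the limit of detection. Cdkn2c (chr4:109660876-109667189, minus strand) encodes p18-INK4c, known to limit the self-renewal of HSCs. In WT fetal liver it was at 0.173, 0.284 and 0.0465 CPM, a total of 28 reads in 3 libraries. In ETV6-RUNX1 fetal liver it was at 0.525, 1.27 and 0.150 CPM, a total of 101 reads, of which 71 came from replicate 2. In WT marrow it was at 3.60, 6.25 and 6.03 CPM, and in ETV6-RUNX1 marrow at 14.8, 14.99 and 14.0 CPM. The 3 ETV6-RUNX1 marrow libraries were tightly grouped and all above WT marrow, whereas the fetal liver genotypes overlapped. In marrow the mean was 2.76-fold higher with the fusion (14.6 ± 0.523 against 5.29 ± 1.47 CPM, SD, n = 3 each), and Cdkn2c rose by 1.34 ± 0.25 on the log2(CPM + 1) scale (limma, adjusted p = 0.0029). This call was kept in 21 of 23 settings. edgeR on the reads gave 1.33 with an adjusted p of 0.0688, and a pseudocount of 0.1 gave 1.49 with 0.0612. Without replicate 1 of WT marrow the rise was 1.13 (limma, adjusted p = 0.0128). In fetal liver the log2 difference was 0.45 ± 0.25 (limma, adjusted p = 0.166) on a scale that compresses such low levels. There edgeR gave 1.92 (adjusted p = 0.0219) and DESeq2 1.94 (adjusted p = 0.00182), and both passed the threshold. The difference between the sources was -0.89 ± 0.35 by limma (adjusted p = 0.126) and took the opposite sign by edgeR (0.60) and DESeq2 (0.61), so that no source can be said to respond more.

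Cdkn2d (chr9:21288410-21291407, minus strand), which encodes p19-INK4d, was at 193, 164 and 192 CPM in WT fetal liver, 200, 223 and 190 CPM in ETV6-RUNX1 fetal liver, 135, 104 and 111 CPM in WT marrow, and 102, 102 and 106 CPM in ETV6-RUNX1 marrow. Genotypes overlapped within each source, and fetal liver lay above marrow throughout. The genotype difference of Cdkn2d was 0.16 in fetal liver (95% interval -0.12 to 0.43, limma adjusted p = 0.345) and -0.17 in marrow (-0.45 to 0.11, adjusted p = 0.376). Cdkn2a (chr4:89274471-89294653, minus strand), which encodes p16-INK4a and the p53 activator ARF from different first exons, was counted 6, 10 and 2 times in WT fetal liver and 2, 0 and 2 times in WT marrow. It had 0 reads in each of the 6 ETV6-RUNX1 libraries, where the limit that 0 reads allows is 3 reads, or at most 0.0928 CPM. Cdkn2a did not pass the filter on low values and is not among the 9 members counted. With no filter limma called it lower in ETV6-RUNX1 fetal liver (-0.15 on the log2(CPM + 1) scale, adjusted p = 0.0218), on 18 reads in the WT libraries, and not in marrow (-0.04, adjusted p = 0.607). Exact permutation gave p = 0.1 in fetal liver, the smallest that 3 against 3 libraries allow.

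Of the CIP/KIP inhibitors, Cdkn1b rose with the fusion in fetal liver, and no change of Cdkn1c with the fusion passed the test. Cdkn1b (chr6:134920401-134925513, plus strand) encodes p27-KIP1, a brake on CDK2 that accumulates in resting cells. It was at 11.8, 18.5 and 13.9 CPM in WT fetal liver and at 27.6, 39.8 and 47.6 CPM in ETV6-RUNX1 fetal liver. In marrow it was at 21.3, 39.4 and 42.1 CPM in WT and at 79.9, 45.5 and 35.4 CPM in ETV6-RUNX1. WT fetal liver had the lowest levels of the 4 groups, without overlap, and the other 3 groups overlapped each other. The mean was 2.60-fold higher with the fusion in fetal liver (38.3 ± 10.1 against 14.7 ± 3.401 CPM, SD, n = 3 each). Cdkn1b rose there by 1.31 ± 0.31 on the log2 scale (limma, adjusted p = 0.00378), in all 23 other settings as well. In marrow the difference was 0.61 (95% interval -0.06 to 1.27, limma adjusted p = 0.184), and the test of the difference between the sources was not passed (0.70 ± 0.44, adjusted p = 0.325). Cdkn1c (chr7:143458339-143461050, minus strand) encodes p57-KIP2, which holds HSCs in quiescence. Its levels were 10.7, 19.0 and 18.7 CPM in WT fetal liver, 14.4, 15.7 and 21.8 CPM in ETV6-RUNX1 fetal liver, 10.2, 9.76 and 7.42 CPM in WT marrow, and 10.5, 12.1 and 11.2 CPM in ETV6-RUNX1 marrow. The fetal liver genotypes overlapped. In marrow the ETV6-RUNX1 libraries lay just above WT without passing the test (0.29, 95% interval -0.20 to 0.78, limma adjusted p = 0.395). The fetal liver difference was 0.12 (-0.37 to 0.61, adjusted p = 0.711) and its sign changed with the scaling, at -0.16 after quantile normalization. Cdkn1c shares 625 exon bases with the antisense gene Gm44732.

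**Figure D2:**
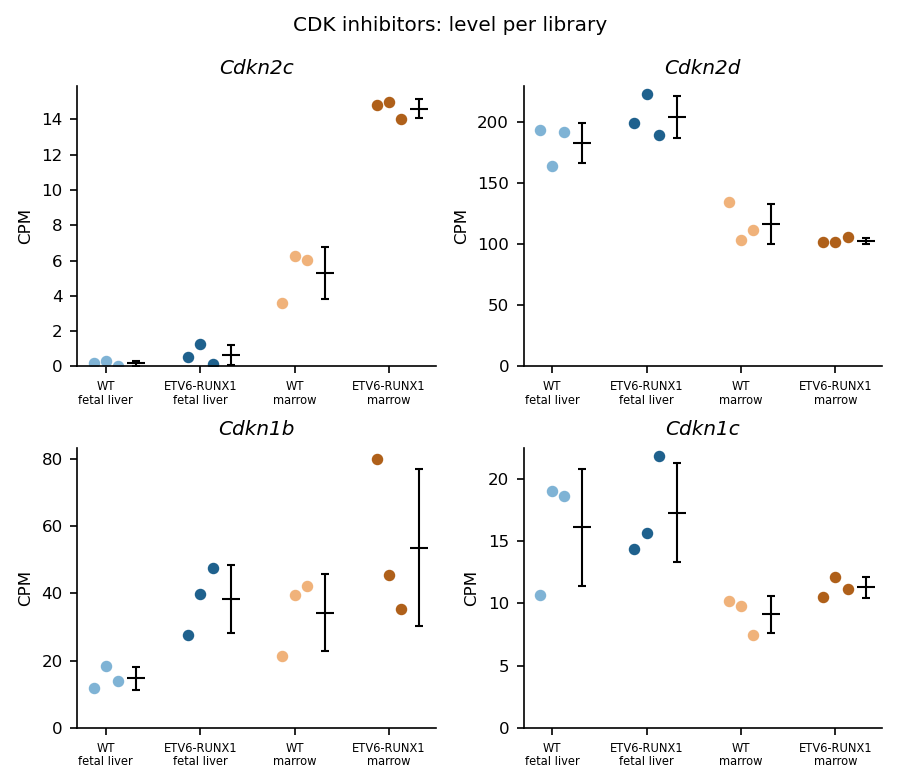
Level of 4 CDK inhibitors in CPM (vertical axis, from 0) in each library (points), with the mean and SD of each group of 3 (black). Cdkn2c is near 0 in fetal liver and at 14.0 to 14.99 CPM in ETV6-RUNX1 marrow, and Cdkn1b is lowest in WT fetal liver.

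Of the 9 members tested, 4 passed the threshold between genotypes in fetal liver, 2 higher (Ccnd3, Cdkn1b) and 2 lower (Cdk4, Cdk6). Among all 14271 genes tested 43.1% were called in that comparison, 24.8% higher and 18.3% lower, so the members' share was close to the background. The groups did not overlap for 4 of 9 members, beside 55.6% of all genes. The members' median log2 difference was 0.12, beside 0.08 over all genes. In marrow 3 of 9 were called, Ccnd3 and Cdkn2c higher and Cdk4 lower, beside 19.4% of all genes (14.4% higher, 4.93% lower), and the groups did not overlap for 4 of 9, beside 34.5%. The medians were 0.29 for the members and 0.13 for all genes. Median-of-ratios scaling moved the median of all genes in marrow from 0.13 to 0.01, so a small marrow difference should be read relative to that shift. For the difference between the sources 1 of 9 members was called, Cdk4, beside 9.19% of all genes (5.56% higher, 3.62% lower).

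Between the sources 4 of 9 members were called in both genotypes: Ccnd1 and Cdkn2d, higher in fetal liver, and Cdk6 and Cdkn2c, lower there. The share of all genes called in both genotypes was not counted, so this number has no background beside it. In WT cells 6 of 9 were called (3 with no filter or without replicate 3 of WT fetal liver), beside 11.1% of all genes tested (3.38% higher, 7.77% lower). Ccnd1 was 2.33-fold, Ccnd3 1.68-fold and Cdkn2d 1.57-fold higher in WT fetal liver than in WT marrow, as ratios of mean CPM. These were log2 rises of 1.14 ± 0.21 (limma, adjusted p = 0.00272), 0.77 ± 0.19 (0.015) and 0.65 ± 0.13 (0.0042). Cdk6 was 2.19-fold, Cdkn1b 2.32-fold and Cdkn2c 31.5-fold lower in WT fetal liver. Their log2 differences were -1.14 ± 0.26 (limma, adjusted p = 0.0108), -1.13 ± 0.31 (0.0299) and -2.41 ± 0.25 (2.41e-05), and edgeR on the reads gave -4.86 for Cdkn2c. The Cdkn2c ratio rests on the 28 reads of WT fetal liver and was 48.2-fold without replicate 2, which held 17 of them. The libraries of the 2 sources did not overlap for these 6 genes and 2 others, Ccnd2 and Cdkn1c, beside 29.5% of all genes. Cdkn1c missed the threshold (0.73 ± 0.23, limma adjusted p = 0.0565) with every fetal liver library above every marrow library, and passed it in 9 of 23 other settings. Ccnd2 (0.24, adjusted p = 0.265) and Cdk4 (0.17, adjusted p = 0.429) did not pass. Without replicate 1 of WT marrow these 6 calls were kept and Cdkn1c passed as well (0.80, limma adjusted p = 0.0414). The WT calls of Ccnd1, Cdkn2c and Cdkn2d were kept in all 23 settings. The other 3 were lost with no filter on low values. The Ccnd3 call was also lost without replicate 1 or 3 of WT fetal liver, the Cdk6 call without replicate 3 of WT fetal liver or 2 or 3 of WT marrow, and the Cdkn1b call without replicate 1 or 3 of WT fetal liver or 2 or 3 of WT marrow. Their highest adjusted p-values over all settings were 0.0651, 0.0703 and 0.133. The 2 sources differ in age, tissue and sort together, which cannot be told apart.

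In ETV6-RUNX1 cells 6 of 9 members were again called between the sources, beside 28.6% of all genes (10.4% higher, 18.2% lower), and the sources did not overlap for 7, beside 42.2%. Cdkn2c (-3.30 ± 0.25, limma adjusted p = 4.08e-07), Cdk6 (-1.68 ± 0.26, 0.000303) and Cdk4 (-0.63 ± 0.13, 0.00232) were lower in fetal liver. Cdkn2d (0.98 ± 0.13, limma adjusted p = 6.92e-05), Ccnd2 (0.41 ± 0.13, 0.0284) and Ccnd1 (0.62 ± 0.21, 0.0405) were higher. As ratios of mean CPM, Cdk6 was 3.21-fold lower and Cdkn2d 1.98-fold higher in fetal liver. The calls of Ccnd1 and Ccnd2 were kept in 13 and 16 of 23 settings, and that of Cdk4 was lost with the processed pseudogene share as a covariate (adjusted p = 0.0862). Cdkn1b (-0.42, adjusted p = 0.333), Ccnd3 (0.35, 0.175) and Cdkn1c (0.55, 0.0842) did not pass. Comparisons between genotypes and between sources share libraries, so they are not separate pieces of evidence. Median-of-ratios scaling moved the median of all genes here from -0.16 to -0.01.

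**Figure D3:**
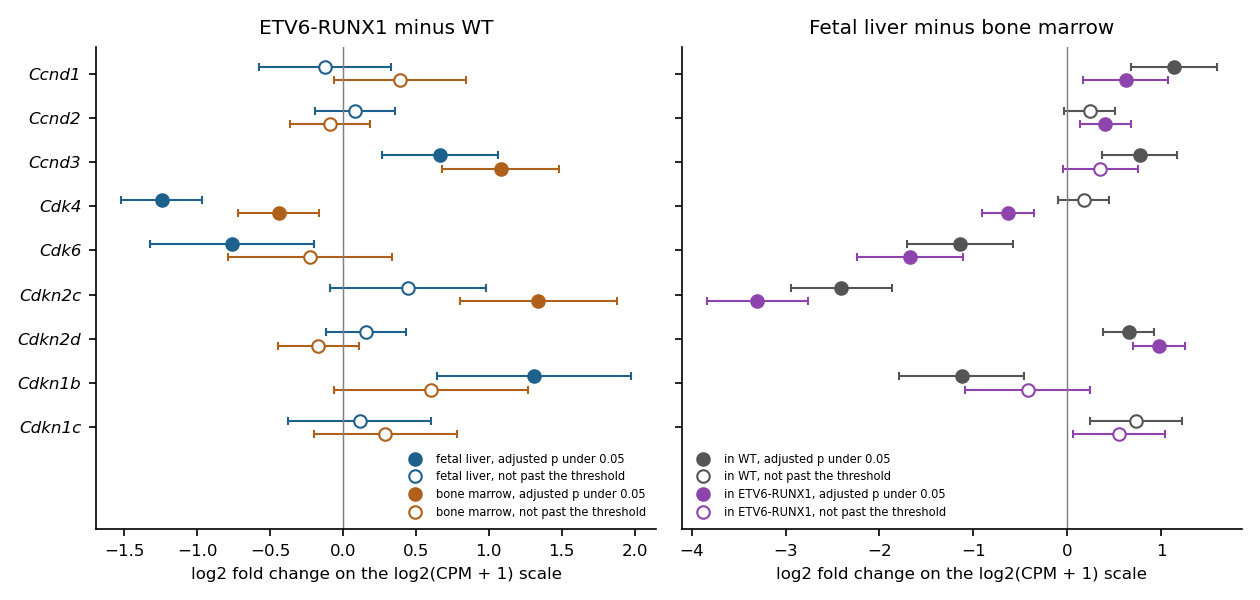
Log2 fold change on the log2(CPM + 1) scale (horizontal axis) of the 9 tested members, with 95% intervals from limma, between genotypes (left) and between sources (right). Filled points passed the threshold: Cdk4 at -1.24 in fetal liver is the lowest point of the left panel, and Cdkn2c at -2.41 and -3.30 the lowest of the right.

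Levels of different genes were compared per kb of exon. Cyclin D transcripts summed to 79.7 ± 2.56 CPM per kb in WT fetal liver, 93.7 ± 8.73 in ETV6-RUNX1 fetal liver, 61.5 ± 8.30 in WT marrow and 71.3 ± 3.17 in ETV6-RUNX1 marrow (SD, n = 3 each). Ccnd2 made up 72.1%, 65.0%, 79.7% and 64.5% of that sum in the same order. Ccnd3 made up 23.1%, 31.2%, 17.7% and 32.4%, and Ccnd1 at most 4.81%. Cyclin D2 thus led in each group, and the ratio of Ccnd2 to Ccnd3 was 3.15 and 4.58 in WT fetal liver and marrow but 2.09 and 2.05 in ETV6-RUNX1. With the length of the longest transcript in place of all exons, Ccnd2 still led, at 64.7%, 56.1%, 73.2% and 55.4%.

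The kinases summed to 291 ± 13.4 CPM per kb in WT fetal liver, 126 ± 1.65 in ETV6-RUNX1 fetal liver, 287 ± 7.62 in WT marrow and 217 ± 27.8 in ETV6-RUNX1 marrow. The WT groups differed in this sum by less than its SD, and Cdk6 was 7.45 ± 2.82% of it in WT fetal liver and 16.5 ± 4.81% in WT marrow. In ETV6-RUNX1 cells Cdk6 was 9.88 ± 2.26% in fetal liver and 18.5 ± 4.08% in marrow. INK4 transcripts, of which Cdkn2d was at least 92.0% in every library, came to 40.1 ± 4.82 per 100 kinase transcripts in WT fetal liver and 103 ± 8.78 in ETV6-RUNX1 fetal liver. In marrow this ratio was 26.5 ± 2.75 in WT and 33.0 ± 4.23 in ETV6-RUNX1. ETV6-RUNX1 fetal liver libraries (94.8 to 112) stood apart from all others (at most 44.6) in the INK4 ratio, while the INK4 sum was 116 ± 10.3 in WT and 130.03 ± 11.2 CPM per kb in ETV6-RUNX1 fetal liver. The size of the INK4 ratio depends on the length used. With the longest transcript in place of all exons it was 28.5 in WT and 73.8 in ETV6-RUNX1 fetal liver. In marrow it was then 19.2 in WT and 24.1 in ETV6-RUNX1. CIP/KIP transcripts were fewer, at 11.1 ± 2.92, 16.9 ± 4.04, 12.0 ± 2.05 and 17.3 ± 4.88 CPM per kb in the order used above. Cdkn1c was 70.5 ± 4.15% of these in WT fetal liver, 50.4 ± 3.47% in ETV6-RUNX1 fetal liver, 38.5 ± 12.0% in WT marrow and 33.8 ± 9.79% in ETV6-RUNX1 marrow. These sums and shares are descriptions with no test.

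**Figure D4:**
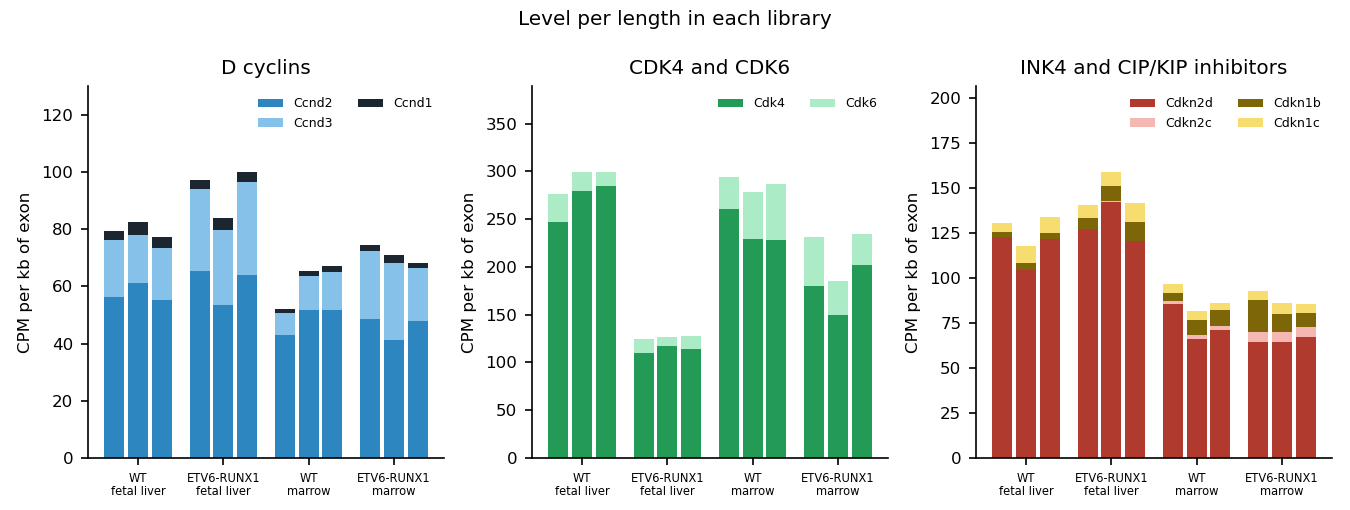
CPM per kb of exon (vertical axis, from 0) stacked by gene, a bar for each of the 12 libraries in 4 groups of 3. The kinase bars of ETV6-RUNX1 fetal liver reach 124 to 127 CPM per kb against 275.9 to 299.5 in WT fetal liver, and the D cyclin bars are made up mostly of Ccnd2.

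Other genes of the pathway were counted in 6 lists. Over all genes 43.1% were called in fetal liver (24.8% higher, 18.3% lower) and 19.4% in marrow (14.4% higher, 4.93% lower). Of 24 E2F target genes of DNA replication, 15 were called lower and 0 higher with the fusion in fetal liver, and 12 lower and 1 higher in marrow. The gene called higher in marrow, named after its values were seen, was Cdt1, a licensing factor of replication (0.78 ± 0.23, limma adjusted p = 0.0316). The list's median log2 difference was -0.66 in fetal liver and -0.51 in marrow, beside 0.08 and 0.13 over all genes. Rfc4, a subunit of the clamp loader, fell by 1.13 ± 0.14 in fetal liver (limma, adjusted p = 3.24e-05) and by 0.68 ± 0.14 in marrow (adjusted p = 0.0061). Pcna, the sliding clamp itself, fell by 0.90 ± 0.15 (limma, adjusted p = 0.000229) and 0.62 ± 0.15 (adjusted p = 0.01). Chaf1b, a chromatin assembly subunit, fell by 0.89 ± 0.11 in fetal liver (limma, adjusted p = 2.53e-05), and the helicase subunit Mcm5 by 0.62 ± 0.16 in fetal liver (adjusted p = 0.00533) and 0.67 ± 0.16 in marrow (adjusted p = 0.00978, lost without replicate 2 of ETV6-RUNX1 marrow at 0.0502).

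Of 14 later cyclins, CDKs and their activators, 8 were called lower and 0 higher in fetal liver, beside 18.3% lower and 24.8% higher over all genes. In marrow 3 were called lower and 0 higher, beside 4.93% and 14.4% of all genes, or 8 lower with median-of-ratios scaling. That scaling also raised the lower calls of all genes in marrow, from 704 to 1313 of 14271. Ccnb1, the mitotic cyclin B1, fell by 1.21 ± 0.17 in fetal liver (limma, adjusted p = 7.26e-05) and by 1.07 ± 0.17 in marrow (adjusted p = 0.00113). Its kinase Cdk1 fell by 1.04 ± 0.15 and 0.67 ± 0.15 (limma, adjusted p = 0.000106 and 0.0088). Cdc25c, a phosphatase that activates Cdk1, fell by 1.05 ± 0.15 in fetal liver (limma, adjusted p = 0.00011). Ccnb2 fell by 0.80 ± 0.13 there (limma, adjusted p = 0.000268) and by 0.49 ± 0.13 in marrow (adjusted p = 0.0194). The Ccnb2 call in marrow was lost with only the 6 libraries compared and without replicate 2 of ETV6-RUNX1 marrow (adjusted p up to 0.0903).

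Among 16 pocket proteins, E2F factors and their partners, 2 were called higher and 3 lower in fetal liver, beside 24.8% and 18.3% of all genes. In marrow 0 were called higher and 2 lower, beside 14.4% and 4.93% of all genes. Calls in both directions together were a smaller share than over all genes (43.1% in fetal liver, 19.4% in marrow), but lower calls alone were not. Rb1, which encodes RB, rose by 1.02 ± 0.22 in fetal liver (limma, adjusted p = 0.00205) from 13.4 ± 2.39 to 28.2 ± 3.90 CPM (SD, n = 3 each), with a difference of 0.04 in marrow (adjusted p = 0.929). The test of the Rb1 response between the sources was not passed (0.99 ± 0.31, adjusted p = 0.0618). Tfdp1, the dimer partner of the E2F factors, fell by 0.87 ± 0.16 in fetal liver (limma, adjusted p = 0.000777) and by 0.56 ± 0.16 in marrow (adjusted p = 0.0278), and Mybl2 fell by 1.11 ± 0.19 in fetal liver (adjusted p = 0.000298). The Tfdp1 call in marrow was kept in 16 of 23 settings. It was lost with no filter, with only the 6 libraries compared and with the processed pseudogene share as a covariate. It was also lost without replicate 2 or 3 of WT marrow or of ETV6-RUNX1 marrow, with adjusted p up to 0.113 over all settings. E2f8, a repressor of the family, had a marrow difference of -0.77 ± 0.25 (limma, adjusted p = 0.0442), and that call was kept in 10 of 23 settings.

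Of 10 tested inhibitors and G1 brakes outside the members, 3 were called higher and 2 lower in fetal liver, close to the 43.1% of all genes. In marrow 3 were higher and 0 lower, beside 14.4% and 4.93% of all genes. With median-of-ratios scaling 1 was higher and 1 lower, beside 1480 and 1313 of all 14271 genes. Btg1, an antiproliferative gene, rose by 1.03 ± 0.23 in fetal liver (limma, adjusted p = 0.00257), and its marrow call (0.71 ± 0.23, adjusted p = 0.0429) was kept in 7 of 23 settings. In fetal liver Trp53, which encodes p53, fell by 0.71 ± 0.11 (limma, adjusted p = 0.000166) and the CDK phosphatase gene Cdkn3 by 0.78 ± 0.17 (adjusted p = 0.00219). In marrow Cdkn1a, the third CIP/KIP gene and a p53 target, was called at 1.12 ± 0.35 (limma, adjusted p = 0.0392), from 53.4 ± 9.43 to 120.01 ± 41.4 CPM (SD, n = 3 each). The Cdkn1a call was kept in 13 of 23 settings and was lost without any single one of WT marrow replicates 1, 2 and 3 and ETV6-RUNX1 marrow replicates 1 and 2, with median-of-ratios scaling and by edgeR (adjusted p up to 0.161). Pkmyt1, a kinase that inhibits Cdk1, rose by 1.48 ± 0.39 in marrow (limma, adjusted p = 0.0175), a call kept in 19 of 23 settings. It was lost with no filter and without replicate 2 of WT marrow or replicate 1 or 2 of ETV6-RUNX1 marrow (adjusted p up to 0.0825).

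Of 17 genes that turn over D cyclins and inhibitors, 0 were called higher and 5 lower in fetal liver, and 2 higher and 2 lower in marrow, or 1 higher and 3 lower with median-of-ratios scaling. Calls in both directions together were a smaller share than over all genes in fetal liver (43.1%) and near it in marrow (19.4%). Lower calls alone were a larger share than the 18.3% and 4.93% of all genes. Higher calls were a smaller share than the 24.8% and 14.4% of all genes. Cks1b, the cofactor with which SKP2 marks p27 for degradation, fell by 1.09 ± 0.18 in fetal liver (limma, adjusted p = 0.000233). Cks2 fell by 1.17 ± 0.16 in fetal liver (limma, adjusted p = 4.39e-05) and by 0.74 ± 0.16 in marrow (adjusted p = 0.00575). Skp1a, another part of that ligase, fell by 0.44 ± 0.12 in fetal liver (limma, adjusted p = 0.0104), a call lost with the processed pseudogene share as a covariate (0.064). Skp2 itself fell by 0.60 ± 0.18 in fetal liver (limma, adjusted p = 0.0165) and by 0.65 ± 0.18 in marrow (adjusted p = 0.0248). The kinase gene Csnk1a1 was called in marrow at 0.96 ± 0.24 (limma, adjusted p = 0.0156), although its genotypes overlapped there (210 ± 79.2 against 102 ± 15.1 CPM, SD). The marrow calls of Skp2 and Csnk1a1 were kept in 17 and 19 of 23 settings, and both were lost with no filter and with only the 6 libraries compared. The Skp2 call was also lost with the processed pseudogene share as a covariate and without replicate 2 or 3 of WT marrow or 2 of ETV6-RUNX1 marrow (adjusted p up to 0.110). That of Csnk1a1 was also lost without replicate 1 or 2 of ETV6-RUNX1 marrow (up to 0.0757).

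Of 16 tested genes known to act upstream of these members, 6 were called higher and 2 lower in fetal liver, and 4 higher and 0 lower in marrow, or 2 and 1 with median-of-ratios scaling. Calls in both directions together were near the 43.1% and 19.4% of all genes. By direction, all genes had 24.8% higher and 18.3% lower in fetal liver, and 14.4% and 4.93% in marrow. Mxd1, a repressor that competes with MYC for E-boxes, rose from 17.2 ± 3.32 to 99.4 ± 16.3 CPM in fetal liver, by 2.47 ± 0.25 on the log2 scale (limma, adjusted p = 3.4e-06). Myc fell by 0.96 ± 0.16 (limma, adjusted p = 0.000253) and Mycn by 1.20 ± 0.15 (adjusted p = 3.34e-05) in fetal liver, as Cdk4 did. Whether MYC or MXD1 acts on Cdk4 was not tested. In marrow the Mxd1 call (0.82 ± 0.25, limma adjusted p = 0.0333) was kept in 14 of 23 settings, and was lost without any single one of WT marrow replicates 1, 2 and 3 and ETV6-RUNX1 marrow replicates 1 and 2. Foxo3, which activates Cdkn1b in many cells, rose by 1.15 ± 0.33 in fetal liver (limma, adjusted p = 0.0117) and was called in marrow at 1.07 ± 0.33 (adjusted p = 0.0355). The marrow call of Foxo3 was kept in 17 of 23 settings. It was lost with no filter, by edgeR, and with only the 6 libraries compared. It was also lost without replicate 1 of WT marrow or replicate 1 or 2 of ETV6-RUNX1 marrow (adjusted p up to 0.126 over all settings). Cbx7, a Polycomb subunit that silences Cdkn2a, was called in marrow (0.75 ± 0.25, limma adjusted p = 0.0469) in the main setting and in 3 of 23 others.

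The genes whose log2 levels followed a member most closely over the 12 libraries are given as descriptions, since the libraries share groups and r mostly reflects those. Cdk4 was most like Rnaseh2a (r = 0.994), a subunit of ribonuclease H2, and Gpatch4 (0.991). Cdkn2c was most like Hspb8 (0.990), a small heat shock protein gene, and Plxnb2 (0.981), a semaphorin receptor gene. Hspb8 had group means of 0.248, 0.846, 7.65 and 24.4 CPM in WT fetal liver, ETV6-RUNX1 fetal liver, WT marrow and ETV6-RUNX1 marrow. Ccnd3 was most like Ehbp1l1 (0.969) and Hdac5 (0.968), a histone deacetylase gene, and Cdk6 most like Fech (0.972), the last enzyme of heme synthesis, and the potassium channel gene Kcnq5 (0.969). Cdkn2d was most like Esd and Rasd1 (0.964 each), Cdkn1b most like Trip11 (0.961) and Cspp1 (0.955), and Ccnd1 most like Tnfrsf25 (0.938) and the imprinted gene Peg3 (0.911). For Cdkn1c the closest were Aup1 (0.927) and Fam181b (0.912), and for Ccnd2 Tmeff2 (0.895) and the glucose transporter gene Slc2a1 (0.880).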

How the data were processed

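Per the labels' protocols, a Norgen kit for single cells gave total RNA, the SMARTer Pico kit gave stranded libraries, and a NovaSeq read both ends. The submitters' processing notes name bcl2fastq, STAR 2.5.1a, Subread, featureCounts 1.4.6-p5, Salmon 0.8.2, edgeR, limma and the build GRCm38, with no role or order. Which gene annotation was counted, and whether strand was used, is not given in the sources used here. The authors deposited CPM (read counts over a fixed library size) for each gene and the 12 libraries. Whole reads could be recovered from 100% of the values (within 0.001 reads), and with them the totals. The table had 40757 entries, of which 276 repeated a gene ID with the same values, leaving 40481 genes, 11203 of them without reads.

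Values were transformed as log2(CPM + 1), which understates changes of low genes. The 14271 genes that reached 1 CPM in 3 or more libraries were fitted with limma 3.58.1 in R 4.3.3: a coefficient for each of the 4 groups, a mean-variance trend, 8 residual degrees of freedom, two-sided tests, Benjamini-Hochberg adjustment over all genes tested and a threshold of 0.05. A call means an adjusted p under 0.05. Of the 10 members, 9 passed the filter. Exact permutation of 3 against 3 libraries cannot go below p = 0.1 and gave that value wherever groups did not overlap. The alternatives were a pseudocount of 0.1, no filter, a mean of at least 5 CPM, median-of-ratios and quantile scaling, array weights, the replicate number as a block, only the 6 libraries compared, edgeR 4.0.16 (quasi-likelihood, TMM) and DESeq2 1.42.0 on the recovered reads, and each library left out. The processed pseudogene share as a covariate was chosen after seeing the data. Intervals cover 95%, and the limit for 0 reads was 3 reads. Floors on reads cover counting error only, because PCR copies were not marked by molecular identifiers. The limma and edgeR steps were tested on simulated data.

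Positions, exon lengths and biotypes came from GENCODE M21 on GRCm38 (99.4% of gene IDs found) and promoters from RefSeq on GRCm38.p6. The members, gene lists and markers were chosen with earlier results of these data known. Of each list, up to 3 called genes of smallest adjusted p in each genotype comparison were named, and for each member the 2 genes of highest Pearson r (predicted genes left out).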

Additional observations from a re-analysis of the deposited data

Results flagged for a closer look

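The test of whether ETV6-RUNX1 acted differently in fetal liver and in marrow (limma, effect in fetal liver minus effect in marrow, log2, adjusted over all genes tested) called 1 of 9 members, beside 9.19% of all genes. Cdk4 had a difference of -0.80 ± 0.18 (SE; adjusted p = 0.0142), with every ETV6-RUNX1 library under every WT library in both sources. With the processed pseudogene share as a covariate it was -0.52 (adjusted p = 0.183). In the lists of other genes it called 3 of 16 upstream regulators, 2 of 24 E2F targets, 1 of 10 inhibitors and brakes, and 0 of 16, 0 of 14 and 0 of 17 in the rest. Myc had -0.999 ± 0.22 (limma, adjusted p = 0.0131), Mycn -0.80 ± 0.22 (adjusted p = 0.0342) and Mxd1 1.65 ± 0.35 (adjusted p = 0.00974), Mxd1 with rises in both sources. Among the E2F targets Chaf1b had -0.62 ± 0.16 (limma, adjusted p = 0.0247) and Cdt1 -1.36 ± 0.33 (adjusted p = 0.0204), from -0.58 in fetal liver, which did not pass (adjusted p = 0.0576), and 0.78 in marrow. Trp53 had -0.53 ± 0.16 (limma, adjusted p = 0.0475). The check for a single library far from the rest of its group needs at least 4 libraries and was not run on these groups of 3.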

How the results depend on the processing

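Over the settings that left out no library, 440 of the members' log2 differences kept their direction and side of the threshold, 19 lost and 17 gained a call and 10 changed sign, and over those that left out a library 507 were kept, 26 lost and 5 gained a call and 2 changed sign. The members called between sources in WT numbered 6, but 3 with no filter and 3 to 7 when a library was left out (3 without replicate 3 of WT fetal liver). The other ranges on leaving out a library were 3 to 5 members in fetal liver, 2 to 3 in marrow, 4 to 7 between sources in ETV6-RUNX1 and 1 to 1 for the difference between sources. With the pseudogene covariate that 1 member was Cdkn2c (-1.68, limma adjusted p = 0.033), not Cdk4. Later cyclins called in marrow numbered 3, but 8 with median-of-ratios scaling, which also raised the lower calls of all genes there. Signs changed for Ccnd2 in fetal liver (-0.011 by edgeR), Cdkn1c in fetal liver (-0.16 with quantile normalization, -0.10 with array weights, -0.0065 by edgeR, and from -0.14 to 0.25 when a library was left out, below 0 without replicate 1 of WT or 3 of ETV6-RUNX1), Cdk6 in marrow (0.077 with the pseudogene covariate), Cdkn1c in marrow (-0.042 with quantile normalization, -0.031 with the covariate), and, for the difference between sources, Cdkn1c (0.46 with the covariate) and Cdkn2c (0.60 by edgeR, 0.61 by DESeq2). The cause was not tested.

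Over all genes, edgeR called 6178 in fetal liver, 2739 in marrow, 1105 for the difference and 1601 and 3241 between sources in WT and ETV6-RUNX1. The counts by limma were 6151, 2763, 1311, 1591 and 4088. Counts more than 1.5 times apart from these were 1601 (6 libraries only) and 1520 (without replicate 2 of ETV6-RUNX1 marrow) in marrow. Between sources in WT they were 4401 with array weights and 904, 2781 and 868 without WT fetal liver 3, WT marrow 1 or WT marrow 2. For the difference they were 767 with no filter, 3637 with array weights, 547 with the covariate, and 766, 737, 847, 2332 and 731 without WT fetal liver 2, WT fetal liver 3, ETV6-RUNX1 fetal liver 1, WT marrow 1 or WT marrow 2. Median-of-ratios scaling moved the split of calls, higher and lower, from 2059 and 704 to 1480 and 1313 in marrow, from 482 and 1109 to 651 and 948 (WT) and from 1484 and 2604 to 2032 and 1489 (ETV6-RUNX1) between sources, and from 794 and 517 to 995 and 353 for the difference. Quantile normalization moved it from 3544 and 2607 to 2717 and 3746 in fetal liver.

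Same-numbered libraries did not deviate together: the 18 pairs had correlations of -0.44 to 0.39 (median -0.04), 7 of them over 0.1. These values showed no pairing by number, but with 3 libraries a group they cannot exclude it. With the replicate block 4 members were called in fetal liver, 3 in marrow, 6 and 6 between sources in WT and ETV6-RUNX1 and 1 for the difference, and 5838, 2334, 1425, 3739 and 1033 of all genes.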
